A study of Mus musculus with 12 samples.

Results

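The Notch genes described here are 4 receptors (Notch1, Notch2, Notch3 and Notch4), 3 ligands (Jag1, Jag2 and Dll1) and 3 target genes (Hes1, Hey1 and Heyl). These 10 genes were found by symbol among the 49585 Ensembl genes of the count tables, and all 10 were among the 18648 genes tested. RNA-seq was performed on 4 stromal populations of male wild-type C57BL/6 mice aged 8 to 10 weeks in steady state, with 3 libraries per population and 2000 sorted cells per library. All 4 populations lacked CD45, Ter119 and CD31, which mark blood, erythroid and endothelial cells. Itga8+ MSCs (mesenchymal stem cells) were Itga8+Alcam+Sca-1- cells, and Itga8-Alcam+ BLCs (bone-lining cells) were Itga8-Alcam+Sca-1- cells, for which the labels give osteoblasts as the cell type. Sca-1+ MSCs were Alcam-Sca-1+ cells, and CD51+CD140a+ MSCs were sorted on an integrin subunit and a PDGF receptor. The first 3 populations were released from bone fragments with collagenase, whereas CD51+CD140a+ MSCs were released from flushed marrow with Accumax. For this last population, the way of isolation and the cell type cannot be told apart. The sources used here do not say whether the 3 libraries of a population came from separate mice, so p-values measure only the spread between these libraries.

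Notch receptors are transmembrane proteins that are cut when a Jagged or Delta-like ligand on a neighbouring cell binds them. The freed intracellular domain enters the nucleus and, with the DNA-binding protein RBPJ and a Mastermind co-activator, switches on genes such as those of the Hes and Hey families, which encode transcriptional repressors. In bone and marrow, Notch signalling is known for its part in the differentiation of osteoblast precursors, in blood vessels and their mural cells, and in the exchange between stroma and blood progenitors.

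The upstream sequence of Notch3, the receptor with the widest range of levels among the populations, is shown to place its start site and the repressor-type motifs in it. The sequence is RefSeq's, on build GRCm38.p6 and the minus strand, and it covers the 250 bases before the annotated start, chr17:32166891-32167140. Capitals mark matches, on either strand, to CACNAG, the N-box bound by HES proteins.
Notch3: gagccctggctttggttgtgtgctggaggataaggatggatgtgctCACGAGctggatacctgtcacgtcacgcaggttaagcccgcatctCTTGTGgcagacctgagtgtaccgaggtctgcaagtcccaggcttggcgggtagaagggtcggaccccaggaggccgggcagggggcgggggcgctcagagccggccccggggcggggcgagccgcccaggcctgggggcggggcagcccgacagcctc
RefSeq windows were matched for 7 of the 10 genes, with 2 windows for Dll1, and none was matched for Hes1, Hey1 and Heyl. CACNAG was found 2 times in the Notch3 window and 1 time each in those of Notch1 and Notch2, and 36.7% of all 32851 windows of this length held it. TGGGAA, the core bound by RBPJ, was in none of the 8 windows and in 21.6% of all windows. Neither CACGTG, the E-box bound by HEY proteins, nor TATAAA was in the 8 windows, against 6.02% and 12.4% of all windows. The Notch3 window had 68.8% G or C, above the median of 52.4% over all windows.

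Between 17580677 and 31332475 reads were counted per library. Levels between libraries are given in CPM, read counts scaled to 1 common library size with TMM factors, and levels between genes in TPM, which also divides by the length of a gene's exons. In each library 3 counts, taken as the floor, were worth 0.0819 to 0.180 CPM. The libraries of Itga8+ MSCs and Itga8-Alcam+ BLCs differed among themselves in the share of counts on genes with over 7000 exon bases, which was 21.4%, 10.7% and 30.8% in the first population and 20.1%, 34.8% and 13.5% in the second. The same share was 26.7% to 30.1% for CD51+CD140a+ MSCs, and Sca-1+ MSCs had 24.7% to 27.7%. Itga8+ replicate 2, which had the lowest share, also had the largest sum of 7 erythroid markers, 1598 CPM against 125 to 434 CPM in the other libraries, and of 11 myeloid and lymphoid markers, 19720 CPM. The latter sum was 3040 to 8942 CPM in the other 5 libraries of Itga8+ MSCs and Itga8-Alcam+ BLCs and 1118 to 2729 CPM in the 6 libraries of the remaining populations, with Cd3e at 0 in every library. Of the 10 of these markers tested, 7 and 8 were called higher in Itga8+ MSCs, and 5 and 8 in Itga8-Alcam+ BLCs, than among Sca-1+ MSCs and CD51+CD140a+ MSCs. Of the 5 genes that encode sort markers, Itga8 was at 35.2 to 199 CPM in Itga8+ MSCs against 0.398 to 4.17 CPM in Itga8-Alcam+ BLCs, and was also at 53.1 to 82.9 CPM in CD51+CD140a+ MSCs, which were not sorted on it. Ly6a, which encodes Sca-1, was at 611 to 659 CPM in Sca-1+ MSCs against at most 35.7 CPM elsewhere, and Alcam was at 1.29 to 5.81 CPM in the populations sorted for it against at most 0.221 CPM elsewhere. Itgav (CD51) and Pdgfra (CD140a) did not set CD51+CD140a+ MSCs apart from Sca-1+ MSCs, at means of 164 and 134 CPM for Itgav (edgeR FDR = 0.889) and 767 and 874 CPM for Pdgfra (edgeR FDR = 0.893). Itgav was called in none of the comparisons, and Pdgfra was called lower in Itga8+ MSCs and Itga8-Alcam+ BLCs than in either. The 10 osteoblast markers summed to 45240 to 117100 CPM in Itga8-Alcam+ BLCs and to 2908 to 9149 CPM in Itga8+ MSCs.

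Among the receptors, Notch3 separated CD51+CD140a+ MSCs from the other populations. Notch3 (ENSMUSG00000038146, chr17:32120820-32166852, minus strand), a receptor best known from mural cells of arteries, was at 168, 61.6 and 106 CPM in CD51+CD140a+ MSCs. It was at 0.643, 0 and 1.5 CPM in Itga8+ MSCs, at 0.199, 1.39 and 0.120 CPM in Itga8-Alcam+ BLCs and at 2.16, 3.61 and 0.234 CPM in Sca-1+ MSCs. The lowest CD51+CD140a+ library stood far above the highest of the 9 others, and the other populations overlapped with one another. The fitted log2 difference was -7.29 (SE 1.31) for Itga8+ MSCs over CD51+CD140a+ MSCs (edgeR FDR = 0.00151), -7.56 (SE 1.32) for Itga8-Alcam+ BLCs (edgeR FDR = 0.00124) and -5.80 (SE 1.20) for Sca-1+ MSCs (edgeR FDR = 0.00489). FDR is the Benjamini-Hochberg adjusted p over all genes tested, two-sided, and a gene was called where it was under 0.1 with a fold above 2. All 3 differences were called in the fit and in each of 21 alternative settings. Their sizes moved with single libraries, to -8.39 without Itga8+ replicate 3 and -6.69 without Itga8+ replicate 2 for the first, to -9.38 without Itga8-Alcam+ replicate 2 for the second and to -6.56 without Sca-1+ replicate 2 for the third. Among the low populations none was called, except that Itga8-Alcam+ BLCs were called below Sca-1+ MSCs without Itga8-Alcam+ replicate 2 (log2 -3.61, edgeR FDR = 0.0818). In bulk samples such as these, fewer cells of a type and less RNA per cell cannot be told apart.

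Notch3 is itself used as a mural marker, so the other mural markers are given beside it. The remaining 11 summed to 1908 to 2860 CPM in CD51+CD140a+ MSCs and to 161 to 958 CPM in the 9 other libraries, and none of the 11 was at 0 in CD51+CD140a+ MSCs. Most of that sum was Pdgfrb, a receptor of stromal as well as mural cells, at 2146 ± 520 CPM (SD, n = 3). Beside Notch3, Pdgfrb and Abcc9 were called higher in CD51+CD140a+ MSCs than in each of the others, and Des higher than in Itga8+ and Sca-1+ MSCs. Cspg4 was called lower than in each of the others, Tagln lower than in Itga8+ MSCs and Itga8-Alcam+ BLCs, Acta2 lower than in Itga8+ MSCs and Mcam lower than in Itga8-Alcam+ BLCs, and Rgs5, Kcnj8, Higd1b and Myh11 were not called in these comparisons. Mean levels in CD51+CD140a+ MSCs were 96.4 CPM for Abcc9 and 28.3 CPM for Des, and ran from 0.648 CPM for Higd1b to 12.7 CPM for Myh11 among the other 8. Over the 12 mural markers, Notch3 included, the median log2 differences were -1.07, -1.60 and -1.92 for Itga8+ MSCs, Itga8-Alcam+ BLCs and Sca-1+ MSCs over CD51+CD140a+ MSCs, where those of all genes tested were 0.18, 0.09 and 0.00. The 8 markers of Lepr+ marrow stroma, Cxcl12 and Lepr among them, summed to 50680 to 70070 CPM in CD51+CD140a+ MSCs against 338 to 919 CPM elsewhere. The part of either cell type in the Notch3 level was not tested. The 13 stress and immediate early genes also summed higher in this population, to 19430 to 26590 CPM against 10710 to 17120 CPM in the other libraries, whereas 6 tendon markers summed to 83.4 to 113 CPM there against 3787 to 23540 CPM in the other libraries. The part of either list in any difference from CD51+CD140a+ MSCs was not tested. The sums of 5 megakaryocyte markers, 15.2 to 37.7 CPM, overlapped among all populations.

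Notch1 (ENSMUSG00000026923, chr2:26457903-26516663, minus strand), the receptor best known from lymphoid development, was likewise highest in CD51+CD140a+ MSCs, at 36.1, 22.8 and 37.9 CPM. Its levels were 0.890, 0.987 and 8.49 CPM in Itga8+ MSCs, 0.548, 15.5 and 3.96 CPM in Itga8-Alcam+ BLCs, and 3.49, 5.65 and 0.328 CPM in Sca-1+ MSCs. No library outside CD51+CD140a+ MSCs reached the level of a library within it. The difference was called for Itga8+ MSCs (log2 -3.23, SE 1.21, edgeR FDR = 0.0627) and for Sca-1+ MSCs (log2 -3.36, SE 1.21, edgeR FDR = 0.0834), but not for Itga8-Alcam+ BLCs (log2 -2.27, SE 1.16, edgeR FDR = 0.155). The first call was lost in 5 of the 21 alternatives. Among these were the fits without Itga8+ replicate 1 or 2 or without CD51+CD140a+ replicate 1 or 3, at edgeR FDRs from 0.116 to 0.153. It was kept in 8 of the 9 alternatives that did not leave out a single library, and its log2 difference was -5.10 without Itga8+ replicate 3. The second was lost without any one of the 6 libraries compared, at edgeR FDRs from 0.116 to 0.211, with a log2 difference of -4.09 without Sca-1+ replicate 2. The third was called without Itga8+ replicate 3 (edgeR FDR = 0.0970) or without Itga8-Alcam+ replicate 2 (log2 -3.86, edgeR FDR = 0.0463), with the 2 populations fitted alone (edgeR FDR = 0.0801), with library totals alone (edgeR FDR = 0.0753) and with DESeq2 (adjusted p = 0.0853). Of the exon bases of Notch1, 9.76% overlap genes on the opposite strand.

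Notch2 (ENSMUSG00000027878, chr3:98013527-98150361, plus strand), a receptor known for its part in skeletal development, was called in none of the 6 comparisons. It was at 4.20, 5.24 and 61.6 CPM in Itga8+ MSCs and at 2.79, 63.9 and 12.2 CPM in Itga8-Alcam+ BLCs. Sca-1+ MSCs were at 40.9, 50.0 and 20.5 CPM and CD51+CD140a+ MSCs at 99.4, 42.2 and 95.3 CPM. In both populations from the Sca-1- gate a single library carried most of the signal, and in each population it was the library with the largest share of counts on long genes. Notch2 has 10782 exon bases, Notch1 14232, Notch3 8089 and Notch4 8061. Without Itga8+ replicate 3, Notch2 was called lower in Itga8+ MSCs than among Sca-1+ MSCs (log2 -3.02, edgeR FDR = 0.0553) and CD51+CD140a+ MSCs (log2 -4.07, edgeR FDR = 0.0150), against log2 values of -0.65 and -1.74 with it. Without Itga8-Alcam+ replicate 2, it was called lower in Itga8-Alcam+ BLCs than in CD51+CD140a+ MSCs (log2 -3.42, edgeR FDR = 0.0468), against -1.58 with it. With the 2 populations fitted alone, it was called lower in Sca-1+ MSCs than in CD51+CD140a+ MSCs (log2 -1.10, edgeR FDR = 0.0593).

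Notch4 (ENSMUSG00000015468, chr17:34564268-34588503, plus strand), a receptor known from endothelium, was near the floor in several libraries. It was at 1.04, 0.571 and 0.404 CPM in Itga8+ MSCs, 0.797, 2.64 and 1.74 CPM in Itga8-Alcam+ BLCs, 0.885, 0.509 and 1.73 CPM in Sca-1+ MSCs, and 1.75, 2.35 and 5.09 CPM in CD51+CD140a+ MSCs. It was called in 1 comparison, with Itga8+ MSCs below CD51+CD140a+ MSCs (log2 -2.17, SE 0.68, edgeR FDR = 0.0328). That call was lost without CD51+CD140a+ replicate 3, with a log2 difference of -1.60 (edgeR FDR = 0.141). Every Sca-1+ library also lay below every CD51+CD140a+ library (log2 -1.55, SE 0.66, edgeR FDR = 0.148), a difference called with the 2 populations fitted alone (edgeR FDR = 0.0739) and with DESeq2 (adjusted p = 0.0956). The 10 endothelial markers summed to 84.0 to 117 CPM in Sca-1+ MSCs and to 11.4 to 39.1 CPM in the other libraries, and their part in the Notch4 level was not tested.

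**Figure D1:**
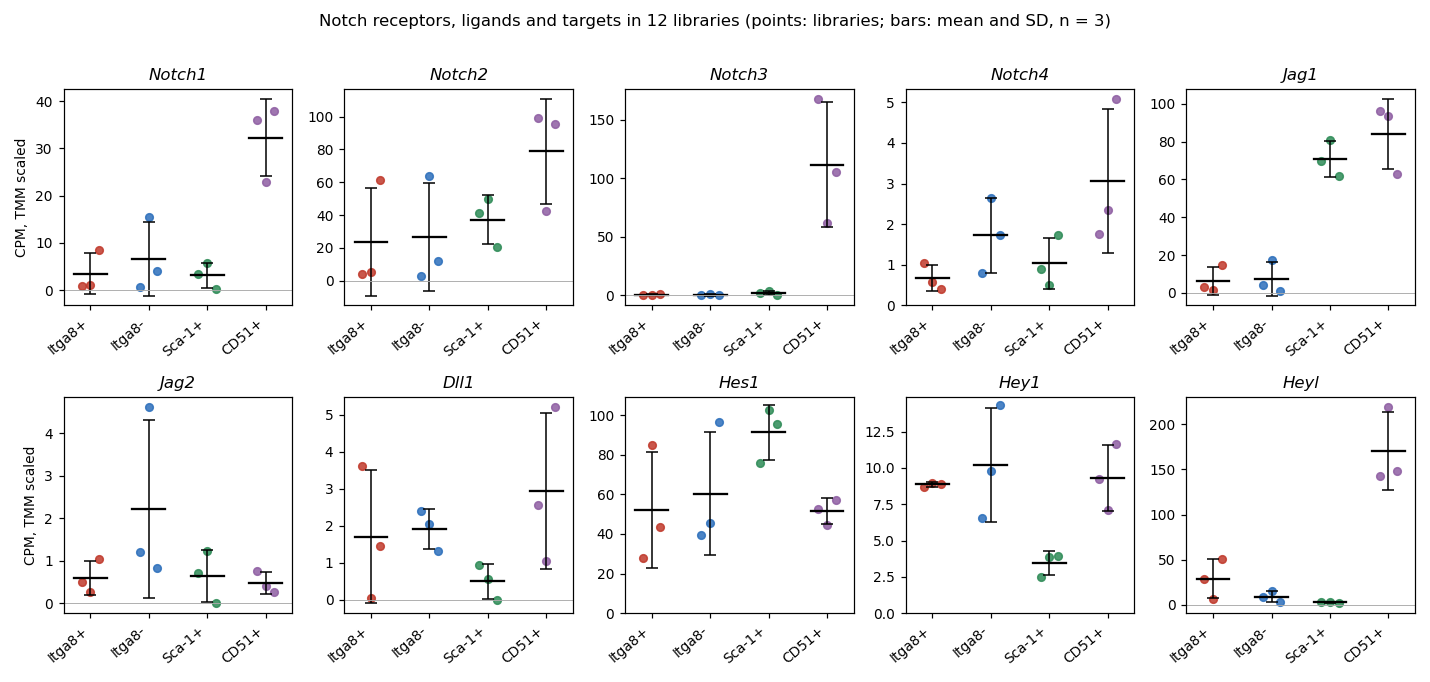
CPM of the 10 Notch genes (y axes, linear, 1 scale per gene) in the 4 populations, with points for libraries, thick lines for the mean and bars for the SD of 3 libraries. Notch3 and Heyl stand out in CD51+CD140a+ MSCs, at 111.6 and 170.2 CPM on average, Jag1 is high in Sca-1+ and CD51+CD140a+ MSCs, and Notch2 is high in a single library each of Itga8+ MSCs and Itga8-Alcam+ BLCs.

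Among the ligands, Jag1 divided the populations into a low and a high pair. Jag1 (ENSMUSG00000027276, chr2:137081456-137116644, minus strand), a Jagged ligand that marrow stroma is known to carry, was at 69.7, 80.6 and 61.6 CPM in Sca-1+ MSCs and at 96.1, 93.5 and 62.8 CPM in CD51+CD140a+ MSCs. It was at 2.87, 1.45 and 14.8 CPM in Itga8+ MSCs and at 3.93, 17.6 and 0.899 CPM in Itga8-Alcam+ BLCs. The 6 libraries of the low pair all stood below the 6 of the high pair, and within each pair the populations overlapped. The low pair was also the one with the higher marker sums of 3 other cell types, 11030 to 117500 CPM against 538 to 1654 CPM for 7 cartilage markers, 3040 to 19720 CPM against 1118 to 2729 CPM for the myeloid and lymphoid ones and 5.21 to 39.9 CPM against 1.69 to 3.74 CPM for 7 muscle markers, and their part in the Jag1 differences was not tested. Itga8+ MSCs were below Sca-1+ MSCs by a log2 difference of -3.47 (SE 0.97, edgeR FDR = 0.0319) and below CD51+CD140a+ MSCs by -3.73 (SE 0.98, edgeR FDR = 0.0145). Itga8-Alcam+ BLCs were below them by -3.24 (SE 0.96, edgeR FDR = 0.0329) and -3.49 (SE 0.97, edgeR FDR = 0.0182). Between the high populations the log2 difference was -0.25 (SE 0.88, edgeR FDR = 0.921), and between the low ones it was -0.24 (SE 0.90, edgeR FDR = 0.975). The 4 calls held in every alternative setting except that of Itga8-Alcam+ BLCs against Sca-1+ MSCs, which was lost without Itga8-Alcam+ replicate 1 (log2 -2.97, edgeR FDR = 0.112). The sizes rested on single libraries more than the calls did: without Itga8+ replicate 3 the first 2 differences were -5.06 and -5.27, and without Itga8-Alcam+ replicate 2 the other 2 were -4.89 and -5.10. Within the low populations Jag1 was highest in the 2 libraries with the largest share of counts on long genes. Of the alternatives, 1 removes a trend with exon length and another leaves out Itga8+ replicate 2 with Itga8-Alcam+ replicate 3, and all 4 differences were called in both. The part of that share in the differences was not tested beyond these.

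The remaining ligands were low in all populations and were called in none of the comparisons. Jag2 (ENSMUSG00000002799, chr12:112907819-112929776, minus strand), the second Jagged ligand, was at 0.495, 0.260 and 1.04 CPM in Itga8+ MSCs, 1.20, 4.63 and 0.839 CPM in Itga8-Alcam+ BLCs, 0.719, 1.22 and 0 CPM in Sca-1+ MSCs, and 0.765, 0.401 and 0.258 CPM in CD51+CD140a+ MSCs. All libraries of Itga8-Alcam+ BLCs lay above all of CD51+CD140a+ MSCs, at a log2 difference of 2.21 (SE 1.10, edgeR FDR = 0.146), which was not called. It was called without Sca-1+ replicate 3 (edgeR FDR = 0.0655), with the 2 populations fitted alone (edgeR FDR = 0.0704), with the length trend removed (edgeR FDR = 0.0854) and with DESeq2 (adjusted p = 0.0907). Dll1 (ENSMUSG00000014773, chr17:15367354-15376872, minus strand), a Delta-like ligand, was at 3.61, 0.0519 and 1.44 CPM in Itga8+ MSCs, 2.39, 2.04 and 1.32 CPM in Itga8-Alcam+ BLCs, 0.940, 0.559 and 0 CPM in Sca-1+ MSCs, and 2.57, 1.06 and 5.22 CPM in CD51+CD140a+ MSCs. Sca-1+ MSCs lay below CD51+CD140a+ MSCs in every library, at a log2 difference of -2.56 (SE 1.21, edgeR FDR = 0.194), which was not called. It was called without Itga8+ replicate 2 (edgeR FDR = 0.0811), with the 2 populations fitted alone (edgeR FDR = 0.0832) and without Itga8+ replicate 2 and Itga8-Alcam+ replicate 3 (edgeR FDR = 0.0795). Of the exon bases of Dll1, 20.5% overlap A930024N18Rik on the opposite strand. Since the library kit marks no strand, reads of the 2 genes cannot be told apart there.

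Among the targets, Heyl was highest in CD51+CD140a+ MSCs and next highest on average in Itga8+ MSCs. Heyl (ENSMUSG00000032744, chr4:123233556-123249875, plus strand), a Hey-family repressor that is a known Notch target in mural cells, was at 142, 220 and 149 CPM in CD51+CD140a+ MSCs and at 29.0, 7.06 and 50.5 CPM in Itga8+ MSCs. It was at 8.56, 15.6 and 2.94 CPM in Itga8-Alcam+ BLCs and at 3.32, 3.20 and 1.83 CPM in Sca-1+ MSCs. CD51+CD140a+ MSCs stood apart from all others, Itga8+ MSCs overlapped with Itga8-Alcam+ BLCs only, and Itga8-Alcam+ BLCs also overlapped with Sca-1+ MSCs. Heyl was 5.90-fold higher in CD51+CD140a+ MSCs than in Itga8+ MSCs (log2 -2.56, SE 0.68, edgeR FDR = 0.0145), 18.8-fold higher than in Itga8-Alcam+ BLCs (log2 -4.23, SE 0.73, edgeR FDR = 0.00114) and 61.1-fold higher than in Sca-1+ MSCs (log2 -5.93, SE 0.80, edgeR FDR = 0.00023). Itga8+ MSCs were 10.4-fold above Sca-1+ MSCs (log2 3.37, SE 0.71, edgeR FDR = 0.00828). These 4 calls held in all 21 alternatives. Without Itga8+ replicate 3 the log2 difference of Itga8+ MSCs was -3.22 from CD51+CD140a+ MSCs and 2.67 from Sca-1+ MSCs, and without Itga8-Alcam+ replicate 2 that of Itga8-Alcam+ BLCs from CD51+CD140a+ MSCs was -4.88.

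The smaller Heyl differences were less stable. Itga8-Alcam+ BLCs were called above Sca-1+ MSCs (log2 1.70, SE 0.67, edgeR FDR = 0.0926), a call lost in 11 of the 21 alternatives, 9 of which left out a library: Itga8+ replicate 1, Itga8-Alcam+ replicate 1 or 2, or any of the Sca-1+ or CD51+CD140a+ libraries, at edgeR FDRs from 0.109 to 0.299. The log2 difference was 1.02 without Itga8-Alcam+ replicate 2. Itga8+ MSCs were not called above Itga8-Alcam+ BLCs (log2 1.67, SE 0.66, edgeR FDR = 0.302), but were without Itga8+ replicate 2 (edgeR FDR = 0.0574). Within each of these 2 populations, but not across both, Heyl followed the order of the share of counts on long genes and of the sum of 7 cartilage markers, Acan, Col2a1 and Sox9 among them, which was 70990, 11480 and 117500 CPM in Itga8+ MSCs and 42890, 75030 and 11030 CPM in Itga8-Alcam+ BLCs. That sum was 538 to 1654 CPM in the other populations, and its part in the Heyl differences was not tested.

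Hey1 (ENSMUSG00000040289, chr3:8663359-8667256, minus strand), a second Hey-family repressor, was the target with the smallest spread in Itga8+ MSCs, at 8.71, 8.98 and 8.90 CPM. It was at 6.52, 9.78 and 14.3 CPM in Itga8-Alcam+ BLCs, at 2.49, 3.87 and 3.94 CPM in Sca-1+ MSCs and at 9.26, 7.08 and 11.6 CPM in CD51+CD140a+ MSCs. Sca-1+ MSCs were the low population, with no library overlapping another population. Hey1 was 2.58-fold higher in Itga8+ MSCs (log2 1.37, SE 0.37, edgeR FDR = 0.0276), 2.97-fold higher in Itga8-Alcam+ BLCs (log2 1.57, SE 0.37, edgeR FDR = 0.0113) and 2.71-fold higher in CD51+CD140a+ MSCs (edgeR FDR = 0.0172) than in Sca-1+ MSCs. The first call was lost without Sca-1+ replicate 1 (log2 1.18, edgeR FDR = 0.111). Among the 3 high populations the log2 differences ran from -0.20 to 0.13, none of them called.

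Hes1 (ENSMUSG00000022528, chr16:30064384-30067796, plus strand), the most general Notch target and also a target of other signals, was the most abundant of the 10 genes per length in every population except CD51+CD140a+ MSCs. It was at 75.9, 103 and 95.6 CPM in Sca-1+ MSCs and at 52.7, 44.6 and 57.4 CPM in CD51+CD140a+ MSCs. Itga8+ MSCs were at 27.99, 84.9 and 43.4 CPM and Itga8-Alcam+ BLCs at 39.6, 45.3 and 96.5 CPM. Every Sca-1+ library lay above every CD51+CD140a+ library (log2 0.83, SE 0.43, edgeR FDR = 0.240), and 1 library each of Itga8+ MSCs and Itga8-Alcam+ BLCs reached the Sca-1+ range. The former difference was 1.77-fold, under the fold threshold of 2. It was called in none of the 21 alternatives, over which its FDR from edgeR or DESeq2 ran from 0.00533 to 0.440. Hes1 was called in none of the comparisons, with log2 differences of -0.81 (SE 0.43, edgeR FDR = 0.208) for Itga8+ MSCs over Sca-1+ MSCs and -0.60 (SE 0.43, edgeR FDR = 0.339) for Itga8-Alcam+ BLCs over Sca-1+ MSCs. Hes1 has only 2037 exon bases, and its high libraries, Itga8+ replicate 2 and Itga8-Alcam+ replicate 3, were those with the smallest shares of counts on long genes. Without Itga8+ replicate 2 the first difference was called (log2 -1.37, edgeR FDR = 0.0369), and without Itga8-Alcam+ replicate 3 the second was (log2 -1.11, edgeR FDR = 0.0968). With a trend on exon length removed from each library, an alternative added after the data had been seen, both were called, at log2 -1.38 (edgeR FDR = 0.00997) and -1.15 (edgeR FDR = 0.0190). Beyond these alternatives and the fit without both high libraries, the part of the long-gene share in the Hes1 levels was not tested.

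**Figure D2:**
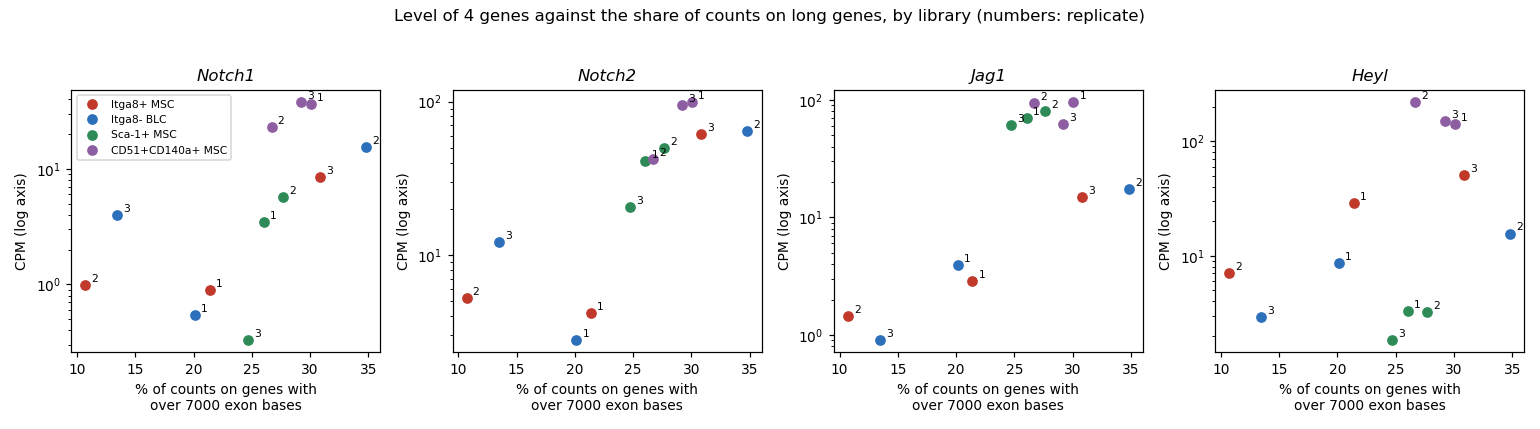
CPM of Notch1, Notch2, Jag1 and Heyl (y axes, log scale) against the percentage of counts on genes with over 7000 exon bases (x axes), 1 point per library, coloured by population and numbered by replicate. In Itga8+ MSCs and Itga8-Alcam+ BLCs the share runs from 10.7% to 34.8% and the library with the largest share in each population has the highest level of all 4 genes, whereas in Sca-1+ and CD51+CD140a+ MSCs the share runs from 24.7% to 30.1%.

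Per length, the make-up of each role differed between populations. Notch2 took the largest part of summed receptor TPM in Itga8+ MSCs (74.6% ± 14.4, SD, n = 3), Itga8-Alcam+ BLCs (69.8% ± 8.73) and Sca-1+ MSCs (85.8% ± 2.02), and led in each of those 9 libraries. Notch3 took 57.3% ± 5.82 in CD51+CD140a+ MSCs with a lowest library of 51.8%, and Notch2 took 30.8% ± 3.76. The summed receptor level was 97.1 ± 45.1 TPM in CD51+CD140a+ MSCs, with a lowest library of 52.0 TPM, and 9.53 ± 12.96, 9.95 ± 12.8 and 15.1 ± 6.54 TPM in the other populations, with a highest library of 24.7 TPM. Of ligand TPM, Jag1 made up 94.5% ± 4.50 in CD51+CD140a+ MSCs and 98.4% ± 1.41 in Sca-1+ MSCs. In Itga8+ MSCs it ranged from 34.7% to 83.8% and in Itga8-Alcam+ BLCs from 26.3% to 72.4%, of ligand sums of at most 13.7 TPM. Hes1 made up 96.6% ± 0.215 of target TPM in Sca-1+ MSCs, but 41.6% ± 7.75 in CD51+CD140a+ MSCs, where Heyl took 53.7% ± 9.04.

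**Figure D3:**
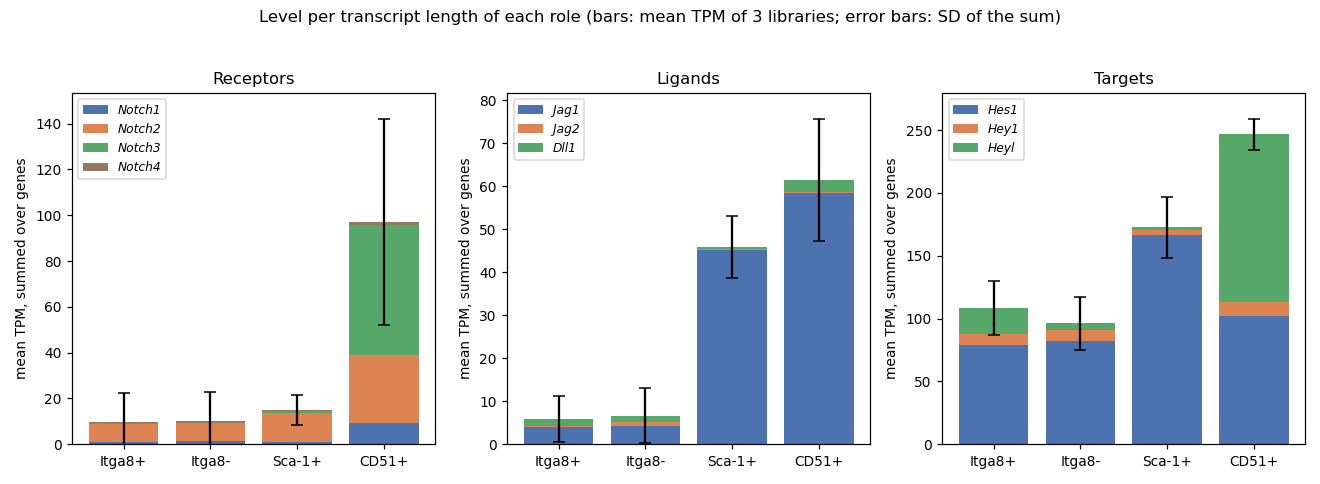
Mean TPM (y axes, linear, from 0) of the receptors, ligands and targets, stacked by gene, in the 4 populations, with error bars for the SD of the summed TPM of 3 libraries. Receptor TPM in CD51+CD140a+ MSCs, 97.1 in sum, is mostly Notch3, ligand TPM in Sca-1+ and CD51+CD140a+ MSCs is nearly all Jag1, and Heyl exceeds Hes1 in CD51+CD140a+ MSCs alone.

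Placed among all genes of the tables by mean TPM, Hes1 stood above 95.9% to 98.3% of genes in every population. Heyl stood above 97.8% in CD51+CD140a+ MSCs and 73.8% in Sca-1+ MSCs, and Notch3 above 94.5% in CD51+CD140a+ MSCs and 62.9% in Itga8-Alcam+ BLCs. These ranks include genes with few or no counts, as only 18648 of the 49585 genes were high enough to be tested. Thus Notch3 held the rank of 62.9% at a mean of only 0.227 TPM, near the floor. Jag1 stood above 93.5% and 94.6% in Sca-1+ and CD51+CD140a+ MSCs, and above 77.5% and 78.8% in Itga8+ MSCs and Itga8-Alcam+ BLCs.

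Counted by comparison, the 10 genes gave 18 calls in 60 tests, and the 6 comparisons share libraries. Between Itga8+ MSCs and Itga8-Alcam+ BLCs none of the 10 was called by edgeR or DESeq2, against 3.82% of all genes tested (1.66% higher in Itga8+ MSCs), and 1, Heyl, had an unadjusted edgeR p under 0.05. Between Itga8+ and Sca-1+ MSCs 3 of 10 were called, against 21.7% of all genes, with Hey1 and Heyl higher in Itga8+ MSCs (12.9% of all genes were) and Jag1 higher in Sca-1+ MSCs (8.89%). Between Itga8-Alcam+ BLCs and Sca-1+ MSCs the same 3 genes were called in the same directions, against 26.4% of all genes, of which 14.5% were higher in Itga8-Alcam+ BLCs and 11.9% in Sca-1+ MSCs. All calls against CD51+CD140a+ MSCs were higher in that population. They were 5 of 10 for Itga8+ MSCs (Notch1, Notch3, Notch4, Jag1 and Heyl), against 35.6% of all genes called and 14.3% called higher in CD51+CD140a+ MSCs. They were 3 of 10 for Itga8-Alcam+ BLCs (Notch3, Jag1 and Heyl), against 35.3% and 14.9%, and 4 of 10 for Sca-1+ MSCs (Notch1, Notch3, Hey1 and Heyl), against 20.5% and 9.30%. For Itga8-Alcam+ BLCs against CD51+CD140a+ MSCs and in both comparisons with Sca-1+ MSCs above, the share of the 10 called in either direction was near that of all genes. The median log2 difference of the 10 was -1.96, -1.20 and -1.49 in the 3 comparisons with CD51+CD140a+ MSCs, where that of all genes tested was 0.18, 0.09 and 0.00, and was -0.21, -0.37 and 0.90 in the first 3, where that of all genes was 0.08, 0.16 and 0.12.

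**Figure D4:**
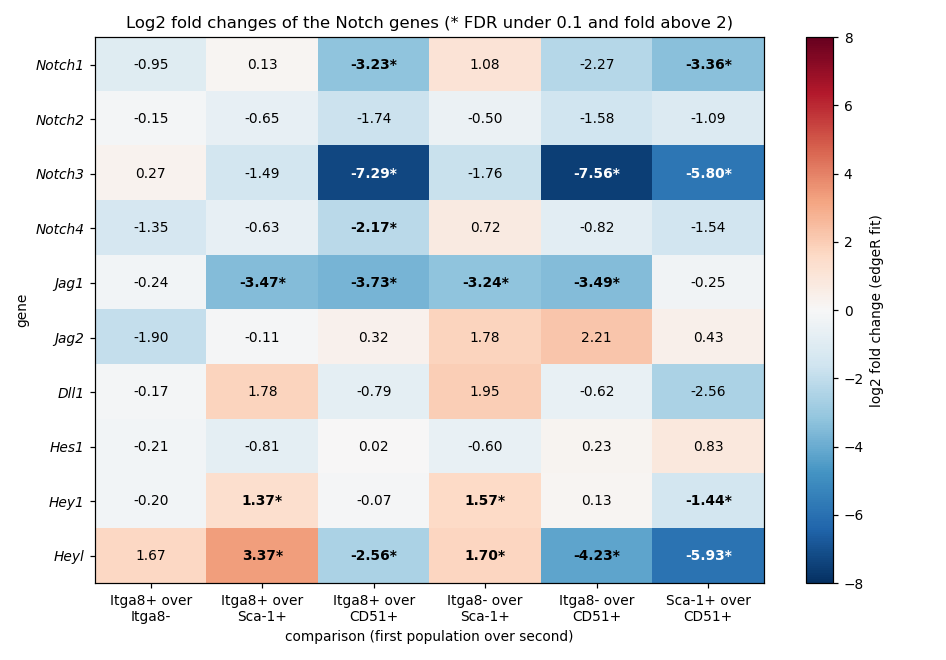
Fitted log2 fold change (colour and number) of the 10 Notch genes (rows) in the 6 comparisons of populations (columns, first over second), with stars for an FDR under 0.1 and a fold above 2. The 12 starred differences against CD51+CD140a+ MSCs are all negative, and no difference between Itga8+ MSCs and Itga8-Alcam+ BLCs is starred.

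The genes whose levels ran most like those of the leading receptor, ligand and target were picked by Pearson's r of log2(CPM + 1) over the 12 libraries, among 10557 genes, as a description in which all genes share libraries and depth. Notch3 was followed most closely by Vcam1 (r = 0.99), an adhesion molecule of marrow stroma, at a mean of 3946 CPM in CD51+CD140a+ MSCs and 51.8 to 92.0 CPM elsewhere, then by Gm43109 (r = 0.988) and Susd2 (r = 0.986). Gm43109 lies opposite Vcam1 and shares 1238 bases of chromosome 3 with it, introns included, and 0.688% of the exon bases of Vcam1 overlap it, where reads cannot be told apart without strand. Jag1 was followed by Sned1 (r = 0.985), Fzd4 (r = 0.983), a Wnt receptor, and Asxl2 (r = 0.982), and Hes1 less closely by Hexim1 (r = 0.904), Dpp7 (r = 0.90) and Ppp1r2 (r = 0.898).

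Beyond the 10 genes, 51 other genes of the pathway were listed, of which 46 were tested and Dll3, Hes2, Hes3, Hes5 and Hes7 were too low. The number called was 1 between Itga8+ MSCs and Itga8-Alcam+ BLCs, 13 between Itga8+ and Sca-1+ MSCs (10 higher in Sca-1+ MSCs), 20 between Itga8+ and CD51+CD140a+ MSCs (14 higher in the latter), 15 between Itga8-Alcam+ BLCs and Sca-1+ MSCs (9 higher in Sca-1+ MSCs), 16 between Itga8-Alcam+ BLCs and CD51+CD140a+ MSCs (9 higher in the latter) and 5 between Sca-1+ and CD51+CD140a+ MSCs (4 higher in the latter). The 7 called higher in Itga8-Alcam+ BLCs than in CD51+CD140a+ MSCs stand beside 20.4% of all genes. As shares of the 46 these were 2.17%, 28.3%, 43.5%, 32.6%, 34.8% and 10.9%, beside the shares of all genes given above, and their median log2 differences were -0.11, -0.43, -0.47, -0.09, -0.36 and -0.12. By role, the genes called between Itga8+ and Sca-1+ MSCs were 4 of 10 proteases, all higher in Sca-1+ MSCs, 4 of 12 nuclear factors higher and 1 lower there, 2 of 11 trafficking genes higher and 1 lower, 1 of 4 other ligands lower, and none of the 6 glycosylation genes or 4 other targets. Over all genes 8.89% were higher and 12.9% lower in Sca-1+ MSCs. Between Itga8+ and CD51+CD140a+ MSCs, 4 of 10 proteases, 6 of 12 nuclear factors, 2 of 6 glycosylation genes, 1 of 11 trafficking genes and 1 of 4 other targets were higher in CD51+CD140a+ MSCs, against 14.3% of all genes. Lower in CD51+CD140a+ MSCs were 3 of 11 trafficking genes, 2 of 4 other ligands, 1 of 12 nuclear factors and 1 of 4 other targets, against 21.2% of all genes. Dtx1 stands in both the trafficking and the other target list. Aph1b and Aph1c, gamma-secretase subunits counted among the proteases, are near-identical copies whose reads may be split between them, so their calls are uncertain.

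Of the non-canonical ligands, Dlk2, a Delta-like protein without the domain that activates receptors, had the highest TPM averaged over the populations. It was at 8.16, 3.74 and 6.59 CPM in Itga8+ MSCs and at 9.46, 10.5 and 7.67 CPM in Itga8-Alcam+ BLCs. It had no count in any Sca-1+ library and was at 0.273, 0.401 and 0.515 CPM in CD51+CD140a+ MSCs. With the Sca-1+ libraries taken at the mean level of 3 counts, 0.153 CPM, Dlk2 was at least 40.3-fold higher in Itga8+ MSCs and at least 60.2-fold higher in Itga8-Alcam+ BLCs. Over CD51+CD140a+ MSCs the log2 differences were 3.94 (SE 0.48, edgeR FDR = 0.000232) and 4.53 (SE 0.49, edgeR FDR = 0.00011), and both the population differences against Sca-1+ MSCs and these held in every alternative.

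Of the genes that modify receptors, Rfng, a fringe glycosyltransferase, had the highest TPM averaged over the populations, at population means of 35.4 to 77.2 TPM, although Poglut1 was above it in Itga8+ MSCs, at 43.8 against 38.2 TPM. Rfng was called in none of the comparisons. Lfng, another fringe enzyme, was named after its values were seen. It was at 27.6, 49.3 and 30.5 CPM in CD51+CD140a+ MSCs and at 0.156 to 10.4 CPM in the 9 other libraries, and it was called higher in CD51+CD140a+ MSCs in all 3 comparisons (log2 -3.82, -2.44 and -5.14 for Itga8+ MSCs, Itga8-Alcam+ BLCs and Sca-1+ MSCs over it, the first at -5.34 without Itga8+ replicate 1). The second of these was lost without Itga8-Alcam+ replicate 3 (edgeR FDR = 0.135) or CD51+CD140a+ replicate 2 (edgeR FDR = 0.111).

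Of the proteases that cut the receptors, Ncstn, a subunit of gamma-secretase, had the highest TPM averaged over the populations. It was at 151, 70.1 and 161 CPM in Itga8+ MSCs, 107, 146 and 91.3 CPM in Itga8-Alcam+ BLCs, 267, 275 and 252 CPM in Sca-1+ MSCs, and 411, 521 and 469 CPM in CD51+CD140a+ MSCs. The order of the last 2 populations above the first 2 held in every library. Itga8+ MSCs were called below CD51+CD140a+ MSCs (log2 -1.88, SE 0.33, edgeR FDR = 0.00132), and Itga8-Alcam+ BLCs below CD51+CD140a+ MSCs (log2 -2.02, SE 0.33, edgeR FDR = 0.000797) and Sca-1+ MSCs (log2 -1.20, SE 0.32, edgeR FDR = 0.0211). The difference of Itga8+ from Sca-1+ MSCs (log2 -1.06, SE 0.32, edgeR FDR = 0.0457) lost its call without Itga8+ replicate 2 (log2 -0.78) and without any Sca-1+ library (log2 -1.03 to -1.09), and with the 2 populations fitted alone (edgeR FDR = 0.118). Adam10, which makes the first cut after ligand binding and was named after its values were seen, was at 178 to 194 CPM in Sca-1+ MSCs, 137 to 146 CPM in CD51+CD140a+ MSCs, 18.7 to 64.3 CPM in Itga8+ MSCs and 60.7, 125 and 36.6 CPM in Itga8-Alcam+ BLCs. Itga8+ MSCs were called below Sca-1+ MSCs (log2 -2.31, SE 0.49, edgeR FDR = 0.00878) and CD51+CD140a+ MSCs (log2 -1.92, SE 0.49, edgeR FDR = 0.0115), in all alternatives, with log2 differences of -2.99 and -2.56 without Itga8+ replicate 3. Itga8-Alcam+ BLCs were called below Sca-1+ MSCs (log2 -1.32, SE 0.48, edgeR FDR = 0.0677), a call lost in 6 of the 21 alternatives, among them without Itga8-Alcam+ replicate 1 or 3 or any Sca-1+ library (edgeR FDRs from 0.130 to 0.197 over these), and the log2 difference was -1.97 without Itga8-Alcam+ replicate 2.

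Of the genes of ligand and receptor trafficking, Dtx4, a ubiquitin ligase of the Deltex family, was called in 5 comparisons, as was Dlk2, and the rest of the 51 genes in fewer. It was at 97.7, 74.5 and 133 CPM in CD51+CD140a+ MSCs, 19.2, 51.7 and 10.8 CPM in Itga8-Alcam+ BLCs, 23.1, 21.3 and 12.7 CPM in Sca-1+ MSCs and 3.46, 1.77 and 9.42 CPM in Itga8+ MSCs. Itga8+ MSCs were lowest, with no library overlapping another population. The differences of Itga8+ MSCs (log2 -4.38, SE 0.71, edgeR FDR = 0.000784) and Sca-1+ MSCs (log2 -2.42, SE 0.65, edgeR FDR = 0.0225) from CD51+CD140a+ MSCs held in all alternatives. That of Itga8+ MSCs from Itga8-Alcam+ BLCs (log2 -2.48, SE 0.66, edgeR FDR = 0.0805), the 1 call between those populations, was lost without any one of 10 of the 12 libraries, Itga8+ replicate 3 and Itga8-Alcam+ replicate 3 being the exceptions, at edgeR FDRs from 0.102 to 0.268, and with the 2 populations fitted alone (edgeR FDR = 0.339). Its log2 difference was -1.61 without Itga8-Alcam+ replicate 2 and -3.37 without Itga8+ replicate 3, and without these libraries in turn the log2 differences from CD51+CD140a+ MSCs were -2.76 for Itga8-Alcam+ BLCs and -5.28 for Itga8+ MSCs. Those of Itga8+ MSCs from Sca-1+ MSCs (log2 -1.96, and -2.89 without Itga8+ replicate 3) and of Itga8-Alcam+ BLCs from CD51+CD140a+ MSCs (log2 -1.90) were lost without Itga8+ replicate 1 or 2 or Sca-1+ replicate 1 or 2, and without Itga8-Alcam+ replicate 1 or 3 or CD51+CD140a+ replicate 3, at edgeR FDRs from 0.119 to 0.153. Numb, an inhibitor of Notch, had the highest TPM of these genes averaged over the populations. In CD51+CD140a+ MSCs, however, Dtx4 and Itch were above it, at 78.3 and 42.6 against 41.1 TPM. Numb was called higher in Sca-1+ MSCs, at 53.2 to 58.9 CPM, than in Itga8+ MSCs (log2 -1.12, edgeR FDR = 0.0530) and Itga8-Alcam+ BLCs (log2 -1.02, edgeR FDR = 0.0597). Both calls were lost without any Sca-1+ library, the first also without Itga8+ replicate 2 and the second without Itga8-Alcam+ replicate 1 or 3, at log2 values from -0.78 to -1.15. The first was also lost with the 2 populations fitted alone (edgeR FDR = 0.108).

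Of the nuclear factors, Ctbp1, a co-repressor, had the highest TPM averaged over the populations, at population means of 93.9 to 163 TPM, and was called in none of the comparisons. Rbpj, the DNA-binding partner of the receptors, and Maml2, a Mastermind co-activator, were named after their values were seen. Rbpj was at 40.2, 49.2 and 41.9 CPM in Sca-1+ MSCs and 39.9, 31.8 and 44.3 CPM in CD51+CD140a+ MSCs, above its 13.2, 8.98 and 21.4 CPM in Itga8+ MSCs and its 9.71, 18.2 and 6.59 CPM in Itga8-Alcam+ BLCs. The pairs of populations were those that Jag1 divided. The log2 differences were -1.59 and -1.41 for Itga8+ MSCs over Sca-1+ and CD51+CD140a+ MSCs (edgeR FDRs = 0.0225 each) and -1.93 and -1.75 for Itga8-Alcam+ BLCs (edgeR FDRs = 0.00713 and 0.00766). With the exon length trend removed the first 2 shrank to -0.91 and -0.74, under the fold threshold, and the others shrank to -1.28 and -1.12 and were called. Maml2 was called lower in the same 4 comparisons (log2 -1.56, -1.93, -1.65 and -2.01), and 1 of these, Itga8+ MSCs over Sca-1+ MSCs, was lost without Sca-1+ replicate 3 (edgeR FDR = 0.124). Of the other targets, Hes6, a Hes-family protein that opposes Hes1, had the highest TPM averaged over the populations, at population means of 41.5 to 50.5 TPM, and was called in none of the comparisons.

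Within Itga8+ MSCs and within Itga8-Alcam+ BLCs, Adam10, Ncstn, Dtx4, Numb and Rbpj followed the order of the share of counts on long genes. The length trend was removed in an alternative, and another left out the library poorest in long-gene counts in each of these populations. Without those libraries, Ncstn (log2 -0.73) and Numb (log2 -0.81) in Itga8+ over Sca-1+ MSCs fell under the fold threshold. So did Numb in Itga8-Alcam+ BLCs over Sca-1+ MSCs (log2 -0.78), and the other calls of these genes were kept. Beyond these alternatives and the fits without single libraries, the part of that share in the differences of these genes was not tested.

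**Figure D5:**
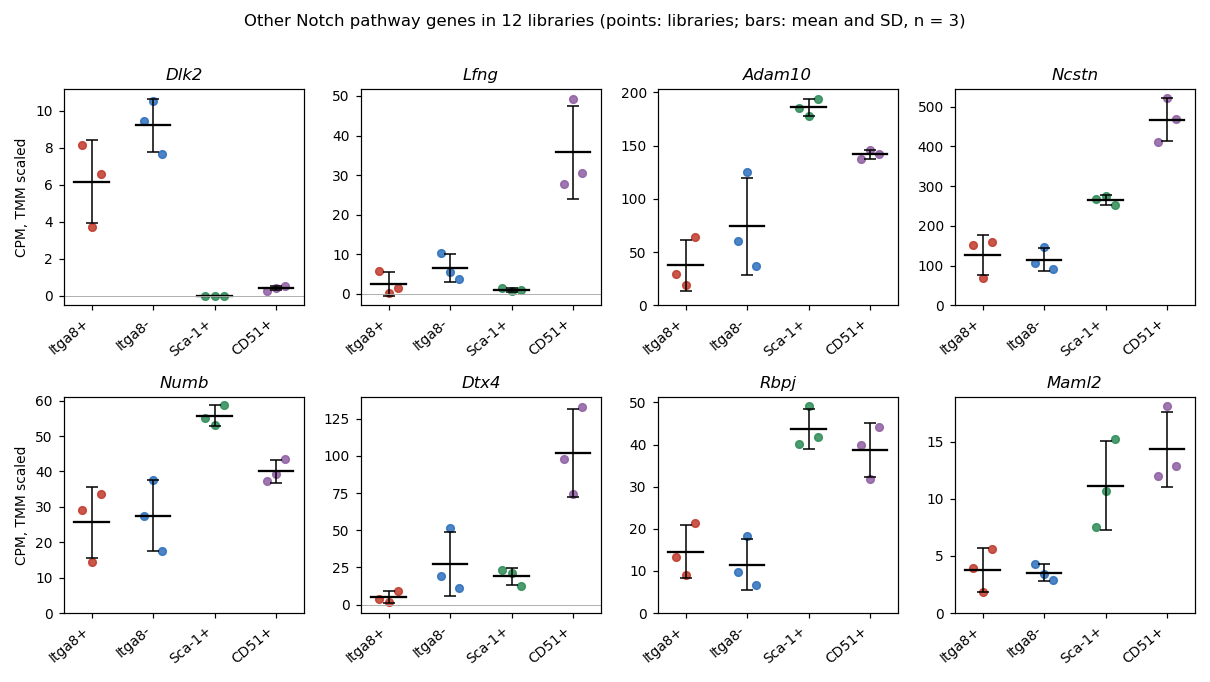
CPM of 8 other Notch pathway genes (y axes, linear, 1 scale per gene) in the 4 populations, with points for libraries, thick lines for the mean and bars for the SD of 3 libraries. Dlk2 has no count in Sca-1+ MSCs, and Lfng and Dtx4 are highest in CD51+CD140a+ MSCs. Adam10, Ncstn, Rbpj and Maml2 are lower on average in both Itga8+ MSCs and Itga8-Alcam+ BLCs than in the Sca-1+ or CD51+CD140a+ populations.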

How the data were processed

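RNA was reverse transcribed with a SMART-Seq v4 kit, which copies whole transcripts and marks no strand or molecule, and Nextera XT libraries were sequenced on a NextSeq 500. The authors deposited unnormalized read counts for each Ensembl gene in each library. The paper's methods name TopHat and Bowtie2 with mm10, while the submitters' processing notes name HISAT2 2.1.0, featureCounts 1.6.3, Trimmomatic 0.38, SAMtools 1.9 and FastQC 0.11.7. The annotation release and strand setting are not given in the sources used here. Total counts ranged from 17580677 to 31332475, and amplified copies count as separate reads.

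Counts of the 12 libraries were fitted in 1 edgeR 4.0.16 quasi-likelihood model (R 4.3.3) with TMM scaling, with a filter that kept any gene reaching 0.5 CPM in 1 or more libraries, and the 6 pairs of populations were compared. A gene was called at a Benjamini-Hochberg FDR under 0.1 and a fold above 2. Full separation of the libraries of 2 populations is given as description only. Its smallest possible p in an exact permutation test of 3 libraries against 3 is 0.1, and the share of all genes so separated was not counted. TPM, coordinates and exon overlaps came from GENCODE M21, and 49326 of 49585 identifiers matched it. Alternatives were DESeq2 1.42.0, other scalings and filters, a replicate block, fits of the compared populations alone and leaving out each library. Removal of the exon length trend, and leaving out Itga8+ replicate 2 with Itga8-Alcam+ replicate 3, the libraries with the fewest counts on long genes, were chosen after seeing the data. The members and lists were chosen with earlier results of these data known. Named genes were the 10 members, the gene of highest TPM, averaged over the populations, in each list of other pathway genes, and the 3 called in most comparisons, with ties broken by the highest population mean CPM (Ncstn before Ep300, Lfng, Maml2 and Rbpj, at 4 comparisons each). Genes outside this rule, Lfng, Adam10, Rbpj and Maml2 among them, were chosen after their values were seen. The model was also run on simulated data with 200 changed genes. These data held no shift in the share of counts on long genes, so that run does not bear on calls affected by it.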

Additional observations from a re-analysis of the deposited data

How the results depend on the processing

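Of the 18 calls of Notch genes, 12 held in all 21 alternatives, 6 were lost in at least 1, and none changed direction. Of the 42 differences not called, 12 were called in at least 1 alternative. The number of Notch genes called between Itga8+ MSCs and Itga8-Alcam+ BLCs went from 0 to 1 without both libraries poor in long-gene counts (leaving out 1 library, 0 to 1). Between Itga8-Alcam+ BLCs and CD51+CD140a+ MSCs it went from 3 to 5 with DESeq2 and with the 2 populations alone (3 to 5), and between Sca-1+ and CD51+CD140a+ MSCs from 4 to 7 with the 2 populations alone (3 to 5). Leaving out 1 library gave 2 to 4 between Itga8+ and Sca-1+ MSCs, 3 to 6 between Itga8+ and CD51+CD140a+ MSCs and 1 to 4 between Itga8-Alcam+ BLCs and Sca-1+ MSCs. Of the other pathway genes, the 1 called between Itga8+ MSCs and Itga8-Alcam+ BLCs became 2 with DESeq2, 0 with the 2 populations alone and 3 with the length trend removed (leaving out 1 library, 0 to 1). The 13 between Itga8+ and Sca-1+ MSCs became 8 with the 2 populations alone (6 to 19), and leaving out 1 library gave 7 to 19 in place of 15 and 10 to 19 in place of 16 for Itga8-Alcam+ BLCs over Sca-1+ and CD51+CD140a+ MSCs.

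Of 18 pairs with the same replicate number, 5 had r over 0.1 between their deviations, over a range of -0.736 to 0.342 for all 18. Of 12 libraries, 5 correlated best with their own number. Under other numbers, r was 0.78 between Itga8+ replicate 3 and Itga8-Alcam+ replicate 2, and 0.75 between Itga8+ replicate 2 and Itga8-Alcam+ replicate 3. The former libraries had the largest shares of counts on long genes in their populations, and the latter the smallest. For this reason the check cannot tell whether libraries were paired. With the replicate block, the other pathway genes called fell to 0 between Itga8+ MSCs and Itga8-Alcam+ BLCs, to 7 between Itga8+ and Sca-1+ MSCs and to 9 between Itga8-Alcam+ BLCs and Sca-1+ MSCs, and the calls of Heyl in Itga8-Alcam+ BLCs over Sca-1+ MSCs (log2 1.65) and Notch1 in Sca-1+ over CD51+CD140a+ MSCs (log2 -3.46) were lost. The block changed no other call of the 10 genes. Of the other genes named in the text, it also ended the calls of Dtx4 in Itga8+ MSCs over Itga8-Alcam+ BLCs (edgeR FDR = 0.224) and Sca-1+ MSCs (0.119), of Ncstn (0.101) and Numb (0.109) in Itga8+ over Sca-1+ MSCs, of Numb and Adam10 in Itga8-Alcam+ BLCs over Sca-1+ MSCs (0.117 each), and of Ep300, a co-activator, in Itga8+ MSCs (0.120) and Itga8-Alcam+ BLCs (0.104) over Sca-1+ MSCs. Over all genes, 712 were called between Itga8+ MSCs and Itga8-Alcam+ BLCs, against 1203 with DESeq2, 433 with the replicate block and 276 with the 2 populations alone (leaving out 1 library, 433 to 886). Between Itga8+ and Sca-1+ MSCs 4055 were called, and 2386 to 5878 without 1 library. Library totals alone moved the median log2 difference of all genes from 0.08 to 0.34 between Itga8+ MSCs and Itga8-Alcam+ BLCs and from 0.09 to -0.24 between Itga8-Alcam+ BLCs and CD51+CD140a+ MSCs, and the share of calls higher in the first population from 43.5% to 61.3% and from 57.9% to 41.8%. Between Itga8-Alcam+ BLCs and Sca-1+ MSCs that share went from 54.9% to 42.6%. The causes of these changes were not tested. Levels under 0.0819 to 0.180 CPM, the worth of 3 counts, could not be told from 0, which limits Notch3, Jag2 and Dll1 in the low libraries.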
